A study of Rattus norvegicus with 24 samples.

Results

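Serotonin receptors are described here by 9 genes, Htr1a, Htr1b, Htr1d, Htr2a, Htr2c, Htr4, Htr5a, Htr6 and Htr7, picked out of the 35032 genes of the count table. The choice was by name, made with earlier results of these data known. All 9 had a row in the table, and mRNA was counted in 2 rat brain regions, the hypothalamic paraventricular nucleus (PVN) and the central amygdala (CEA). The 24 libraries formed 8 groups of 3. In each region there was a normal control group without an operation (NC), a group with partial hepatectomy (HT), a group with the same operation and electroacupuncture (EA), and a group with the operation and needles through which no current was passed (sham, SEA). The rats were male Sprague-Dawley rats, and by the study's methods every group, NC included, was restrained in the same way during the sessions. Needles were placed at the Zusanli and Sanyinjiao points of the leg before and after the operation, which removed part of the liver under isoflurane. Tissue was taken a day after the last session. The methods describe isoflurane for the operated groups, so operation and anaesthetic cannot be told apart in HT against NC.

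All of these receptors are coupled to G proteins. Htr1a, Htr1b, Htr1d and Htr5a encode receptors that act through inhibitory Gi/o proteins and lower cyclic AMP, Htr2a and Htr2c encode receptors that act through Gq proteins and phospholipase C, and Htr4, Htr6 and Htr7 encode receptors that act through Gs proteins and raise cyclic AMP. Serotonin reaches both regions through the axons of neurons whose cell bodies lie in the raphe nuclei of the brainstem. The mRNA of raphe neurons is found mainly in their cell bodies, so receptor mRNA counted in the PVN and CEA would come mainly from cells of the tissue taken. Which cells it came from was not tested. In the PVN, serotonin is known to stimulate the neurons that release corticotropin-releasing hormone, and the CEA is a relay for fear and stress responses.

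The start regions of 4 of these genes are printed, 3 for their difference between regions and 1 for its level. Htr6 and Htr1d were the receptors highest in the CEA relative to the PVN, Htr5a was a receptor whose PVN libraries all lay above its CEA libraries, and Htr2c had the highest level in the PVN. RefSeq windows of the GRCr8 assembly, 300 bases each around the annotated start, matched 6 of the 9 genes (Htr1b, Htr1d, Htr2c, Htr5a, Htr6 and Htr7). Capitals mark the GC box GGGCGG, searched on the plus strand of the gene and as its reverse complement.
Htr6 (chr5:156595098-156595397, minus strand): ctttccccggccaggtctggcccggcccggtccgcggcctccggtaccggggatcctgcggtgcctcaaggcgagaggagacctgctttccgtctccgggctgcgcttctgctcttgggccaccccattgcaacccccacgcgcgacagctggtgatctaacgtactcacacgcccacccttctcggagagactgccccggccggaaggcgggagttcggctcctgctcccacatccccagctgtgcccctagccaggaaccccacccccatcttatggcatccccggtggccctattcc
Htr1d (chr5:153939485-153939784, plus strand): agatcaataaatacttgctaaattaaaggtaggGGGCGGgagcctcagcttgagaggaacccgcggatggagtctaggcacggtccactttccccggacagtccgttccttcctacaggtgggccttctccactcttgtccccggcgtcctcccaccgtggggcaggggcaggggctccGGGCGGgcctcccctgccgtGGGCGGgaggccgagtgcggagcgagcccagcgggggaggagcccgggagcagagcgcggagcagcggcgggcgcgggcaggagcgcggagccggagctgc
Htr5a (chr4:8188436-8188735, minus strand): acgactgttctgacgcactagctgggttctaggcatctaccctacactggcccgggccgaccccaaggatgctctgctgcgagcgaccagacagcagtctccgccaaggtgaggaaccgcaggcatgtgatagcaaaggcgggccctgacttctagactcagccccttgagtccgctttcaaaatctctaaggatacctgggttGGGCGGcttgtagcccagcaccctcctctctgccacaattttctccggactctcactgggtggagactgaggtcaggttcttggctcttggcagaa
Htr2c (chrX:115452940-115453239, plus strand): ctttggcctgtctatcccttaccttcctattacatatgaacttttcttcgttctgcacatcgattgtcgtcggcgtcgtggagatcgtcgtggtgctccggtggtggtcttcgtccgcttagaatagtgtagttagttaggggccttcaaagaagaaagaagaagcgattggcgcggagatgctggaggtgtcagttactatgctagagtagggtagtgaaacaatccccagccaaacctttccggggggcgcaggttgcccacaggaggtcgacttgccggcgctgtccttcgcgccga

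The Htr1d window held 3 GC boxes and the Htr5a window held 1, whereas 0 matches were found in the Htr6 and Htr2c windows. Of the 33469 rat windows of this length in the same source, 33.1% held at least 1 GC box. The CCAAT motif, searched on both strands, occurred once in the Htr2c window and in 37.5% of all windows. Matches to TATAAA, present in 14.2% of all windows, were found in 0 of these 4. G and C bases made up 69.3% of the Htr1d window, 68.0% of the Htr6 window, 58.0% of the Htr5a window and 53.7% of the Htr2c window, beside a median of 51.7% over all windows. Htr6 and Htr1d thus shared a high G and C content but not the GC box, and a letter match is a description only.

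Total counts ran from 13152772 to 18607032 per library. Levels are given as counts scaled to a common library size (CPM) scaled by TMM factors, and as CPM per kilobase of the gene length in the table wherever 2 genes are compared. Differences between groups were tested with edgeR's quasi-likelihood test, two-sided, with Benjamini-Hochberg adjustment over all genes tested and a threshold of 0.05. The p-values measure the spread between these libraries, and neither the labels nor the methods tie a library to a rat. The methods name 12 rats for the 4 treatments and also say that brain tissue came from different rats of a single batch. PVN and CEA libraries of a treatment may therefore share animals, and the fits between regions take the 24 libraries as independent. The summed level of 6 neuroendocrine PVN markers was 410.0 to 1349 CPM in the PVN and 35.2 to 179 CPM in the CEA. The summed level of 8 markers of CEA and striatal GABA neurons was 2747 to 6744 CPM in the CEA and 457 to 561 CPM in the PVN, and this list does not separate the CEA from the adjoining striatum. Some libraries stood apart. PVN NC replicates 1 and 3 differed from PVN NC replicate 2 across many genes. CEA NC replicate 2, EA replicate 1 and SEA replicate 2 held 1082, 383 and 1787 CPM of 7 choroid plexus markers, beside 7.14 to 26.3 CPM in the other 9 CEA libraries. CEA EA replicate 2 had 3.80% of its counts on mitochondrial genes, beside 10.1% to 14.4% in the other CEA libraries. The study left a CEA EA set out of its co-expression analysis because of very large differences, and does not say which. Every CEA EA library was kept here.

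**Figure D1:**
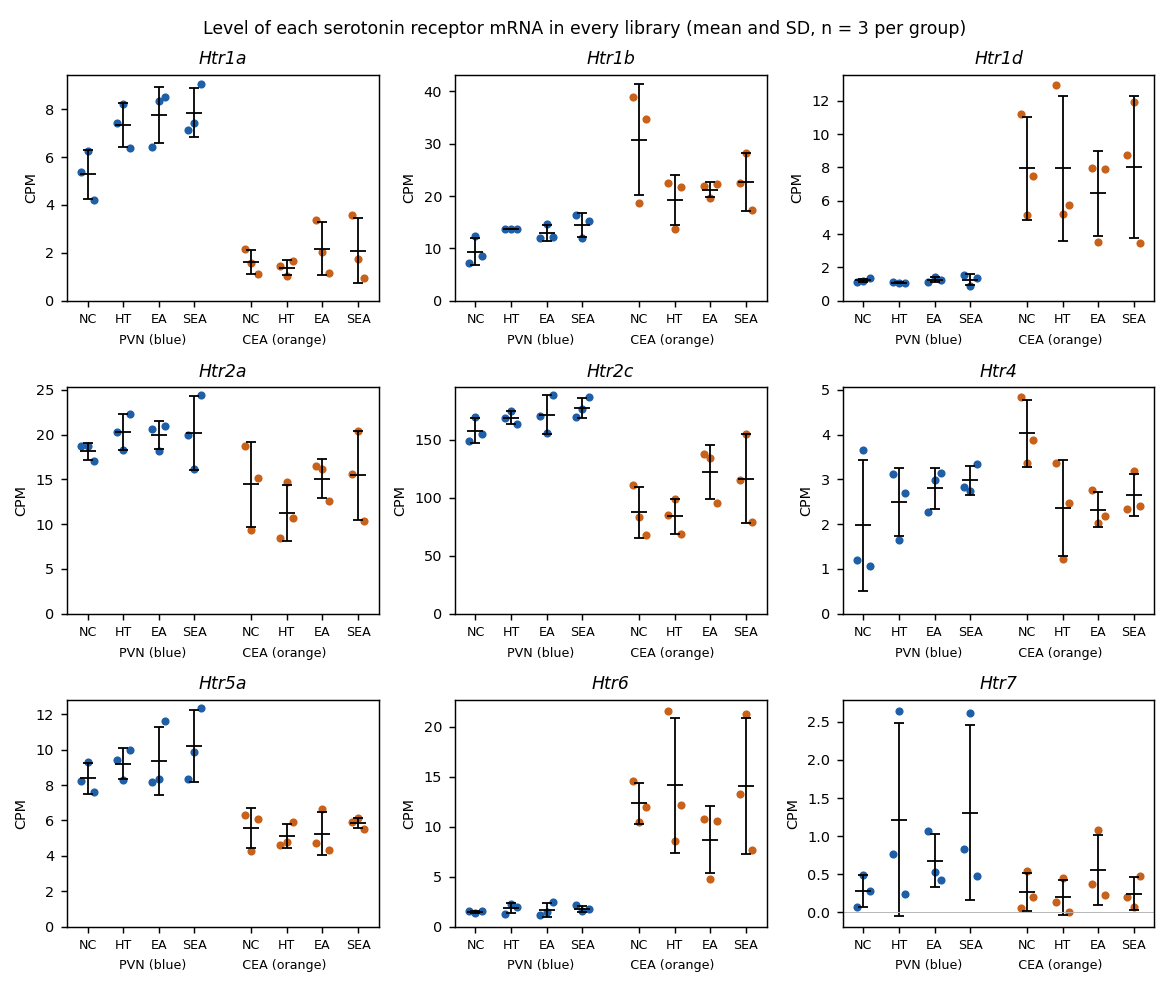
CPM of each of the 9 receptor mRNAs in every library, with 1 point per library and the mean and SD of each group of 3 drawn in black. Htr6 and Htr1d form separate CEA and PVN ranges with the CEA above, Htr1a and Htr5a form separate ranges with the PVN above, and the groups within a region overlap for most genes.

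Most receptor mRNAs differed between the regions. Over all 24 libraries, with each treatment weighted equally, 8 of the 9 receptors differed between the CEA and the PVN, 3 of them (Htr6, Htr1d and Htr1b) higher in the CEA and 5 (Htr1a, Htr5a, Htr2c, Htr2a and Htr7) higher in the PVN. The background was high, because 56.6% of the 17768 genes tested were called, 27.1% as higher in the CEA and 29.6% as higher in the PVN. The median log2 fold change of the 9 receptors was -0.52, beside -0.01 for all genes tested. For 4 of the 9 (Htr6, Htr1d, Htr1a and Htr5a) the 12 CEA libraries did not overlap the 12 PVN libraries in CPM, which was the case for 14.3% of all genes tested. In bulk tissue, fewer cells of a type and less mRNA per cell cannot be told apart. Other features also separated the regions. The summed oligodendrocyte markers were at 24487 to 41842 CPM in the CEA and at 9186 to 15741 CPM in the PVN. Mitochondrial genes held 7.07% to 8.77% of PVN counts, below every CEA library except EA replicate 2. The part of these features in the receptor differences was not tested.

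**Figure D2:**
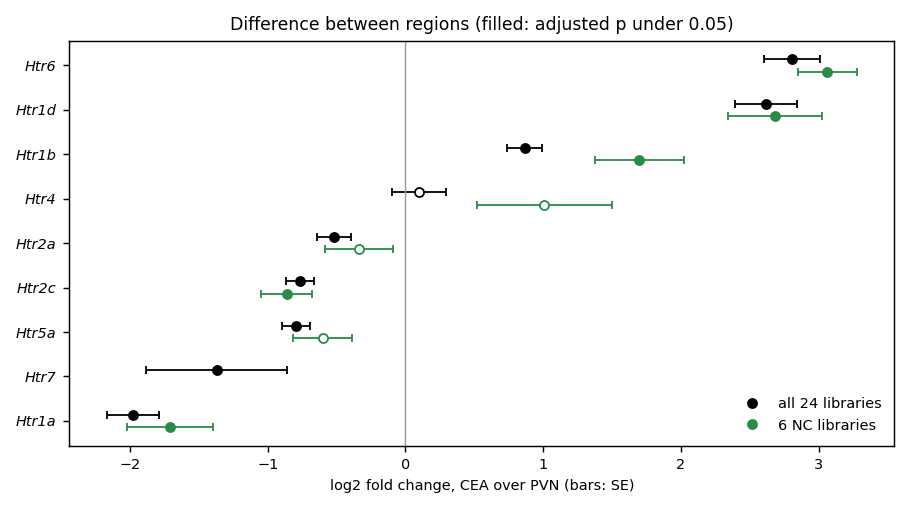
Log2 fold change of the CEA over the PVN for each receptor, with its standard error, over all 24 libraries (black) and over the 6 NC libraries (green). Filled points have an adjusted p under 0.05. Htr6 and Htr1d lie above 2 in both fits, Htr1a lies below -1 in both, and Htr7 has a value from the 24 libraries alone.

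Htr6 encodes a Gs-coupled receptor known to be abundant in the striatum and neighbouring basal forebrain. Its row gives chromosome 5, 157503040 to 157518631 on the minus strand, in a genome build that the table does not name. In the PVN its level was 1.14 to 2.45 CPM with a median of 1.53 CPM, from 18 to 46 counts per library. In the CEA it was 4.80 to 21.6 CPM with a median of 11.4 CPM, from 71 to 341 counts. The lowest CEA library lay above the highest PVN library. The CEA exceeded the PVN by 2.81 on the log2 scale (SE 0.21, adjusted p = 4.22e-10), a ratio of means of 7.25. In the NC libraries alone Htr6 was at 1.52, 1.36 and 1.51 CPM in the PVN and at 14.6, 10.5 and 11.96 CPM in the CEA, a log2 fold change of 3.06 (SE 0.21, adjusted p = 0.000389).

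Htr1d encodes a Gi/o-coupled receptor known from axon terminals. Its row gives chromosome 5, 154800226 to 154801350 on the plus strand, the same chromosome as Htr6. The level was 0.895 to 1.53 CPM in the PVN (median 1.17 CPM) and 3.44 to 13.0 CPM in the CEA (median 7.69 CPM). The ranges did not overlap, and PVN libraries held 14 to 27 counts against 43 to 196 counts in CEA libraries. Htr1d was higher in the CEA by 2.62 on the log2 scale (SE 0.22, adjusted p = 4.44e-09). In NC rats Htr1d stood at 1.14, 1.20 and 1.34 CPM in the PVN and at 11.2, 5.12 and 7.48 CPM in the CEA, a log2 fold change of 2.68 (SE 0.34, adjusted p = 0.00226).

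Within the CEA, Htr6 and Htr1d varied widely from library to library. The means of the 4 CEA groups ran from 8.71 CPM (EA) to 14.1 CPM (HT) for Htr6 and from 6.45 CPM (EA) to 8.03 CPM (SEA) for Htr1d. The highest CEA library was 4.51 times the lowest for Htr6 and 3.77 times for Htr1d, whereas the corresponding PVN ratios were 2.16 and 1.71. The 3 CEA libraries with the highest Htr1d were HT replicate 1, SEA replicate 2 and NC replicate 1, and the same 3 had the highest Htr6, at 21.6, 21.3 and 14.6 CPM. They also had the highest summed level of the 8 CEA and striatal GABA neuron markers, at 6744, 6532 and 6171 CPM. SEA replicate 3 and EA replicate 2 had the lowest marker sums, 2747 and 2963 CPM, and the lowest Htr6, 7.68 and 4.80 CPM. All 8 markers of the list were detected in every CEA library, but they did not behave alike. Prkcd ran from 20.4 to 558 CPM in the CEA and from 14.5 to 156 CPM in the PVN. Tac1 ran from 82.6 to 297 CPM in the CEA and from 47.1 to 91.0 CPM in the PVN. The other markers of the list did not overlap between regions. Ppp1r1b had the highest CEA median, 2022 CPM, beside a median of 4433 CPM for the sum. The part of the summed marker level in the receptor values was not tested. Without the 3 CEA libraries rich in choroid plexus markers, a choice made after the data were seen, the differences between regions were 2.69 for Htr6 and 2.54 for Htr1d on the log2 scale.

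**Figure D3:**
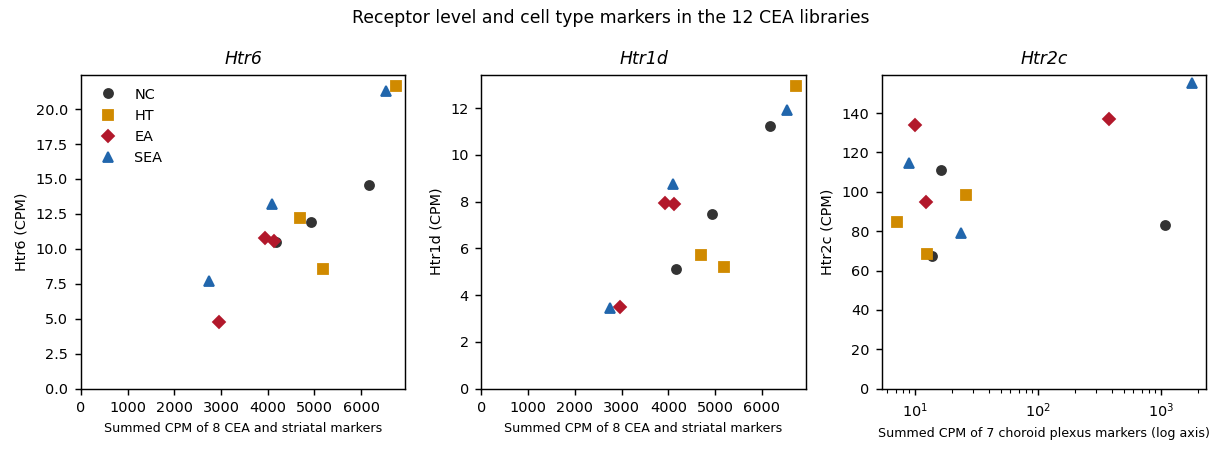
Receptor level against a summed marker level in the 12 CEA libraries, with 1 symbol per treatment. Htr6 and Htr1d are plotted against 8 CEA and striatal GABA neuron markers, where the libraries with 6171 CPM or more hold the highest receptor levels and those with 2963 CPM or less the lowest. Htr2c is plotted against 7 choroid plexus markers on a log axis, where the highest Htr2c value, 155 CPM, belongs to the library with 1787 CPM.

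Htr1b encodes the Gi/o-coupled receptor that acts as an autoreceptor on serotonin terminals and also on terminals of other neurons. Its row gives chromosome 8, 89129453 to 89130991 on the minus strand. The 12 PVN libraries ran from 7.26 to 16.3 CPM (median 13.0 CPM) and the 12 CEA libraries from 13.7 to 39.0 CPM (median 22.1 CPM), so the ranges overlapped. Htr1b was higher in the CEA by 0.86 on the log2 scale (SE 0.13, adjusted p = 6.09e-06), and by 0.79 (adjusted p = 7.45e-05) when PVN NC replicates 1 and 3 were left out, a choice made after the data were seen. In the NC libraries the difference was 1.70 (SE 0.32, adjusted p = 0.00917), from 7.26, 12.4 and 8.62 CPM in the PVN and 39.0, 18.7 and 34.7 CPM in the CEA. The CEA mean was 3.27 times the PVN mean without an operation, 1.41 times after HT, 1.64 times after EA and 1.56 times after SEA.

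Htr1a showed the opposite regional pattern to Htr6 and Htr1d. Htr1a encodes a Gi/o-coupled receptor that opens potassium channels, and it is the autoreceptor on the cell bodies of raphe serotonin neurons as well as a receptor on their targets. Its row gives chromosome 2, 36246628 to 36247896 on the plus strand. The level was 4.20 to 9.03 CPM in the PVN (median 7.27 CPM) and 0.960 to 3.59 CPM in the CEA (median 1.61 CPM), without overlap. The difference was -1.98 on the log2 scale (SE 0.19, adjusted p = 1.92e-08), and the PVN mean was 3.88 times the CEA mean. In NC rats the values were 5.37, 6.26 and 4.20 CPM in the PVN and 2.15, 1.57 and 1.14 CPM in the CEA, and the difference was -1.71 on the log2 scale (SE 0.31, adjusted p = 0.00793).

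Htr5a, which encodes a Gi/o-coupled receptor found mainly in brain, lies at chromosome 4, 199916 to 209599 on the plus strand of the table's build. Its RefSeq window is on the minus strand of GRCr8, so the table's build and GRCr8 hold the gene in opposite orientation, and the window was joined by symbol. It ran from 7.61 to 12.4 CPM in the PVN (median 8.84 CPM) and from 4.28 to 6.62 CPM in the CEA (median 5.72 CPM). The ranges did not overlap. The CEA over PVN difference in Htr5a was -0.79 on the log2 scale (SE 0.10, adjusted p = 1.01e-06). In the NC libraries it was -0.60 (SE 0.22, adjusted p = 0.0788), which missed the threshold in the fit of those 6 libraries and passed it when the same contrast was taken from all 24 libraries (adjusted p = 0.0251).

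Htr2c and Htr2a, the pair of Gq-coupled receptors, were both higher in the PVN. Htr2c, at X, 118084890 to 118318039 on the plus strand, encodes a receptor known for its role in feeding and for RNA editing, which gene counts do not show. Its level was 149 to 189 CPM in the PVN (median 170 CPM) and 67.6 to 155 CPM in the CEA (median 96.8 CPM), and the CEA over PVN difference was -0.76 on the log2 scale (SE 0.10, adjusted p = 2.27e-06). Only the CEA library with the most choroid plexus marker mRNA, SEA replicate 2, reached the PVN range of Htr2c. Choroid plexus is known to express Htr2c strongly. EA replicate 1, the CEA library with 383 CPM of these markers, had 137 CPM of Htr2c, but EA replicate 2, with a marker sum inside the low range, had 134 CPM, and NC replicate 2, with 1082 CPM, had 83.3 CPM. The part of choroid plexus tissue in these Htr2c values was not tested. Without these 3 marker-rich libraries the difference between regions in Htr2c was -0.84 (adjusted p = 2.30e-06).

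In NC rats Htr2c was at 149, 170 and 155 CPM in the PVN and at 111, 83.3 and 67.6 CPM in the CEA. The log2 fold change of Htr2c was -0.86 (SE 0.19, adjusted p = 0.0148), and it missed the threshold when CEA NC replicate 2 was left out (-0.82, adjusted p = 0.0549). Htr2a encodes the receptor through which hallucinogens act, and its row gives chromosome 15, 56666012 to 56735382 on the plus strand. It was at 16.2 to 24.5 CPM in the PVN (median 19.3 CPM) and 8.40 to 20.4 CPM in the CEA (median 14.9 CPM), with overlapping ranges. The difference in Htr2a was -0.52 over 24 libraries (SE 0.12, adjusted p = 0.00133) and -0.34 in the NC libraries (SE 0.25, adjusted p = 0.347). The NC value of Htr2a was -0.10 (adjusted p = 0.727) without CEA NC replicate 2 and -0.58 (adjusted p = 0.120) without CEA NC replicate 1.

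Htr4 and Htr7, both Gs-coupled, had low counts. Htr4, at chromosome 18, 57654290 to 57819698 on the plus strand, ran from 1.06 to 3.65 CPM in the PVN and from 1.23 to 4.84 CPM in the CEA. Over 24 libraries its log2 fold change was 0.10 (SE 0.20, adjusted p = 0.686), and 0.01 to 0.30 with any 1 library left out. In NC rats Htr4 was at 1.20, 3.65 and 1.06 CPM in the PVN and at 4.84, 3.37 and 3.87 CPM in the CEA, a difference of 1.01 (SE 0.49, adjusted p = 0.167) that became 1.82 (adjusted p = 0.00658) when PVN NC replicate 2 was left out. The other 9 PVN libraries held 1.64 to 3.35 CPM, so PVN NC replicates 1 and 3 were the lowest of the PVN.

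Htr7 encodes a receptor known for its part in circadian timing and sleep, and the table places it on the unplaced scaffold KL568473.1, 279960 to 399184 on the minus strand. It had 1 to 42 counts in PVN libraries and 0 to 16 counts in CEA libraries, where a single library, HT replicate 3, had 0 counts, which allows up to 0.165 CPM at its depth. The largest values, 2.65 CPM in PVN HT replicate 2 and 2.62 CPM in PVN SEA replicate 2, stood far from the other libraries of their groups. The log2 fold change of Htr7 was -1.37 (SE 0.51, adjusted p = 0.0280). Leaving out any 1 of PVN NC replicate 2, PVN HT replicate 2, PVN EA replicate 1, PVN SEA replicate 2 or CEA SEA replicate 2 ended the call, with adjusted p from 0.0503 to 0.0780. Htr7 did not pass the filter on low counts in the NC libraries.

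In the NC libraries alone, 5 of the 8 receptors that passed the filter were called, Htr6, Htr1d and Htr1b as higher in the CEA and Htr1a and Htr2c as higher in the PVN. Of the 16748 genes tested there, 26.4% were called, 12.7% as higher in the CEA and 13.7% as higher in the PVN. The median log2 fold change was 0.33 over these 8 receptors and -0.01 over all genes tested.

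The order of the receptors by level per length differed between regions. In the PVN, Htr2c was the highest receptor in 12 of 12 libraries at 38.4 ± 2.75 CPM per kilobase (SD, n = 12), and Htr1b was next in every library at 8.22 ± 1.69. Htr1a (5.56 ± 1.11), Htr5a (4.75 ± 0.750) and Htr2a (4.25 ± 0.499) followed with overlapping ranges, and Htr4 (1.80 ± 0.594), Htr1d (1.07 ± 0.159), Htr6 (0.831 ± 0.203) and Htr7 (0.598 ± 0.598) formed a low group in CPM per kilobase. Among neighbours in this PVN order, Htr2c and Htr1b, and Htr2a and Htr4, had ranges that did not overlap.

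In the CEA the mean levels per length were 23.3 ± 6.46 CPM per kilobase for Htr2c and 15.3 ± 4.68 for Htr1b (SD, n = 12). Htr2c was the highest receptor in 10 of 12 libraries and Htr1b in the other 2, which were NC replicates 1 and 3. Htr1d (6.75 ± 2.83) and Htr6 (6.02 ± 2.44) came next, ahead of Htr2a (3.04 ± 0.818), Htr5a (2.78 ± 0.425), Htr4 (2.003 ± 0.673), Htr1a (1.43 ± 0.678) and Htr7 (0.218 ± 0.206). Every neighbouring pair in the CEA order overlapped in range except Htr1a and Htr7. Htr1d and Htr6 each exceeded Htr1a in 12 of 12 CEA libraries and in 0 of 12 PVN libraries. Lengths are those of the table, in which Htr1a, Htr1b and Htr1d are single uninterrupted models of 1269, 1539 and 1125 bases, so levels compared between genes depend on how complete each model is.

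**Figure D4:**
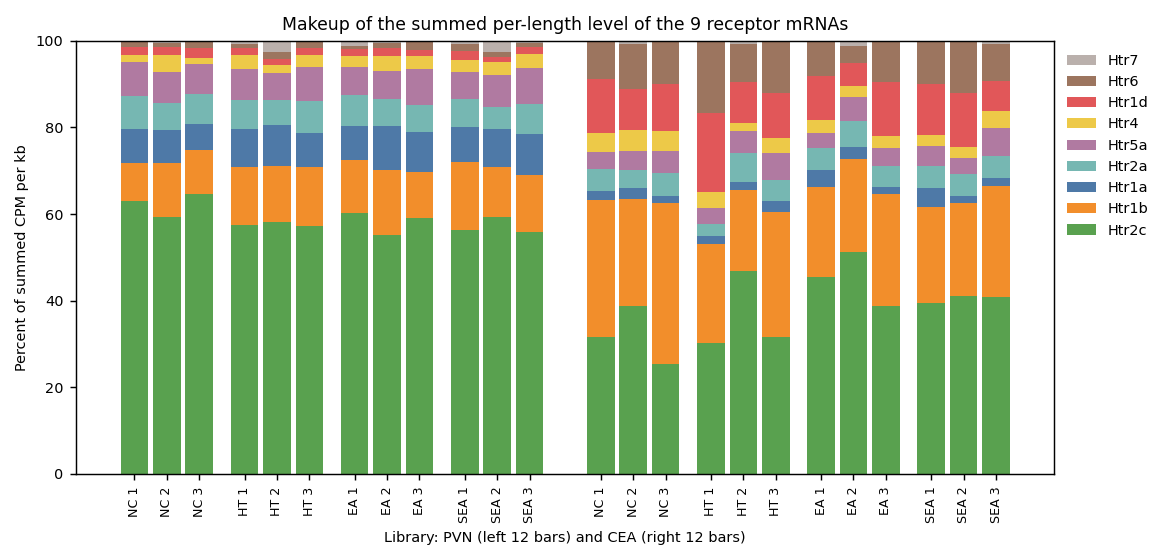
Share of each receptor in the summed CPM per kilobase of the 9 receptors, 1 bar per library, with PVN libraries on the left and CEA libraries on the right. Htr2c makes up 55.1% to 64.5% of PVN bars and 25.4% to 51.3% of CEA bars, while Htr1d and Htr6 are wider in every CEA bar than in any PVN bar.

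Summed over the 9 receptors, the level per length was similar in size in the 2 regions, with a median of 65.8 CPM per kilobase in the PVN (53.6 to 75.9) and 60.0 in the CEA (43.8 to 85.8). The median share of Htr2c in that sum was 58.5% in the PVN and 39.1% in the CEA. Htr1b took 12.7% in the PVN and 23.9% in the CEA, Htr1d took 1.59% and 10.7%, and Htr6 took 1.24% and 9.44%. The median share of Htr1a was 8.44% in the PVN and 1.96% in the CEA. Shares of one sum are not independent of each other, and no test was run on them.

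None of the 9 receptors passed the adjusted threshold in a treatment comparison. In the PVN, 0 receptors were called by edgeR in HT against NC, EA against HT, SEA against HT and EA against SEA, and DESeq2 called 0 as well. All genes gave few calls too. The PVN share called was 0.0120% for HT against NC, 0.0961% for EA against HT, and 0% for SEA against HT as for EA against SEA. In the CEA 0 receptors were called by either tool in the same 4 comparisons, and the share of all genes called by edgeR was 0% in each. At an unadjusted p under 0.05, 2 of the 8 receptors tested in PVN HT against NC passed (Htr1a and Htr1b), where 11.0% of all genes did. This count rested on single libraries. Leaving out replicate 1 or 3 of PVN NC, or replicate 1 or 2 of PVN HT, took it to 0. It was 5 without PVN NC replicate 2 and 1 (Htr1b) by DESeq2. In CEA EA against HT 1 of 8 (Htr2c) passed, where 3.19% of all genes did. The count was 0 in the other 6 comparisons, where the shares of all genes were 5.67% in PVN EA against HT, 4.38% in PVN SEA against HT, 5.21% in PVN EA against SEA, 3.75% in CEA HT against NC, 3.07% in CEA SEA against HT and 1.99% in CEA EA against SEA. In CEA HT against NC, where same-numbered libraries deviated together, the fit with the replicate number as a block gave 2 of 8 at an unadjusted p under 0.05, Htr1b and Htr4, beside 985 of all 16413 genes tested, and 0 at the adjusted threshold.

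**Figure D5:**
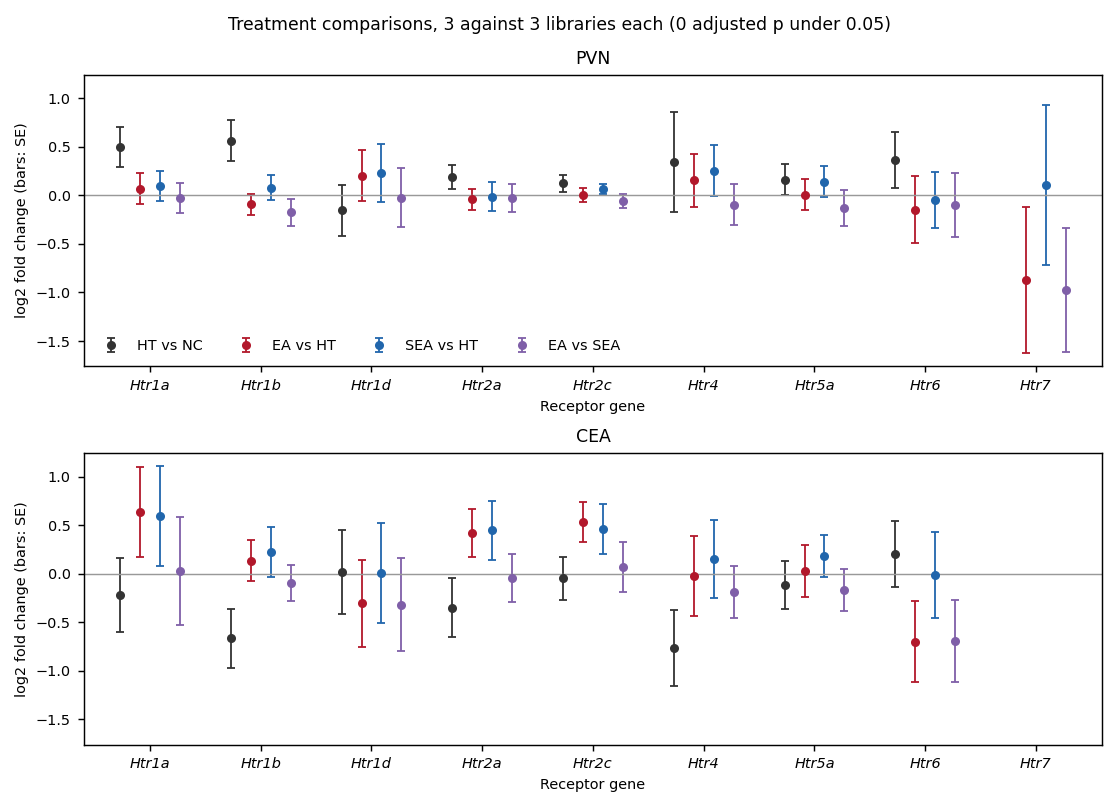
Log2 fold change of each receptor with its standard error in 4 comparisons of 3 against 3 libraries, for the PVN (upper panel) and the CEA (lower panel). No point passes the adjusted threshold, and the points of Htr1a and Htr1b in PVN HT against NC and of Htr2c in CEA EA against HT are those with an unadjusted p under 0.05. Htr7 has no point where it did not pass the filter on low counts.

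Htr1a was the receptor that the study's text names. Its PVN values were 5.37, 6.26 and 4.20 CPM in NC libraries, 7.41, 8.20 and 6.39 CPM in HT libraries, 6.43, 8.32 and 8.51 CPM in EA libraries and 7.13, 7.42 and 9.03 CPM in SEA libraries. All 9 libraries of operated rats lay above the 3 NC libraries. The log2 fold change of Htr1a in HT against NC was 0.50 (SE 0.21, unadjusted p = 0.0469, adjusted p = 0.418), and in EA against HT it was 0.07 (SE 0.16, adjusted p = 0.993). The HT against NC value was 0.50 (unadjusted p = 0.0796) without PVN NC replicate 1 and 0.34 (unadjusted p = 0.142) without PVN NC replicate 3. In the CEA Htr1a had 12 to 55 counts per library, and its log2 fold change was -0.22 in HT against NC (SE 0.38, adjusted p = 0.939) and 0.63 in EA against HT (SE 0.46, adjusted p = 0.930), with overlapping libraries. Without CEA EA replicate 1 the EA against HT value was 0.18 (adjusted p = 0.994), and over all single libraries left out it ran from 0.18 to 0.95. Marker sums moved with HT against NC in the PVN without overlap. The PVN neuroendocrine markers were at 1057, 995 and 1349 CPM in NC and at 893, 936 and 410.0 CPM in HT, those of cortex and hippocampus excitatory neurons at 4.73, 19.3 and 17.6 CPM in NC and at 21.9, 23.5 and 20.3 CPM in HT, and those of choroid plexus at 17.0, 17.9 and 14.2 CPM in NC and at 11.8, 10.4 and 10.7 CPM in HT. A few genes carried these sums. PVN medians in the neuroendocrine list were 557 CPM for Oxt and 278 CPM for Avp. In the choroid plexus list they were 5.78 CPM for Clic6, 3.12 CPM for Folr1 and 0.867 CPM for Ttr. A change in such a sum therefore need not be a change in the amount of a tissue. The part of these marker lists in the PVN values of Htr1a and Htr1b was not tested. HT against NC and EA against HT share the HT libraries, so the 2 values of a region are not independent.

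Htr1b had values of opposite sign in the 2 regions when HT was set against NC, and neither passed the adjusted threshold. In the PVN it was at 7.26, 12.4 and 8.62 CPM in NC and at 13.7 CPM in each of the 3 HT libraries, a log2 fold change of 0.56 (SE 0.21, unadjusted p = 0.0288, adjusted p = 0.418). PVN NC replicate 2 lay near the HT libraries and PVN NC replicates 1 and 3 lay below every other PVN library. The difference was 0.40 (unadjusted p = 0.0752) without PVN NC replicate 1 and 0.49 (unadjusted p = 0.0885) without PVN NC replicate 3. Leaving out PVN NC replicate 2 gave Htr1b a difference of 0.82 (adjusted p = 0.00852), and the number of all genes called went from 2 to 3418. Over all alternatives the adjusted p of Htr1b ran from 0.00852 to 0.801. EA libraries held 12.05, 14.8 and 12.1 CPM and SEA libraries 16.3, 11.96 and 15.3 CPM. In the CEA it was at 39.0, 18.7 and 34.7 CPM in NC and at 22.4, 13.7 and 21.7 CPM in HT, a log2 fold change of -0.67 (SE 0.31, adjusted p = 0.918). With the replicate block it was -0.63 (unadjusted p = 0.00489, adjusted p = 0.749), and Htr1b was lower in HT in each of the 3 same-numbered pairs. Without CEA NC replicate 2 it was -0.93 (unadjusted p = 0.00781, adjusted p = 0.999). Astrocyte markers summed to 2642, 3087 and 2370 CPM in CEA NC and to 2098, 2097 and 2198 CPM in CEA HT, without overlap, and their part in the CEA values was not tested. The highest 2 CEA libraries for Htr1b were thus NC replicates 1 and 3, the same replicate numbers that were lowest in the PVN.

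Htr2c in the CEA was at 84.6, 98.6 and 68.5 CPM in HT and at 137, 134 and 95.0 CPM in EA. Replicate 3 of EA lay below replicate 2 of HT, so the groups overlapped. EA over HT gave Htr2c a log2 fold change of 0.53 (SE 0.21, unadjusted p = 0.0308, adjusted p = 0.930). The value was 0.43 (unadjusted p = 0.111) without EA replicate 1 and 0.46 (unadjusted p = 0.0883) without EA replicate 2, the 2 EA libraries that stood apart. Leaving out HT replicate 1 or HT replicate 3 gave 0.54 (unadjusted p = 0.0546) and 0.41 (unadjusted p = 0.115). The summed level of the 8 CEA and striatal GABA neuron markers moved with this comparison, at 6744, 5186 and 4691 CPM in the HT libraries and at 3938, 2963 and 4126 CPM in the EA libraries, without overlap. The part of these markers in the EA against HT values of Htr2c, Htr6 and Htr1d was not tested. The SEA libraries of the CEA held 115, 155 and 78.8 CPM of Htr2c, and EA against SEA gave 0.07 (SE 0.25, unadjusted p = 0.800). In the PVN Htr2c was at 169, 174 and 163 CPM in HT and at 170, 155 and 189 CPM in EA, a difference of 0.01 on the log2 scale (SE 0.07).

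The remaining receptors that passed the filter on low counts gave log2 fold changes between -0.15 and 0.37 in PVN HT against NC, and between -0.76 and 0.21 in CEA HT against NC, apart from Htr1a and Htr1b. Htr7 did not pass it in either comparison. In the PVN Htr7 had 1, 9 and 5 counts in NC and 13, 42 and 4 counts in HT, with overlap, and without the filter its log2 fold change was 2.08 (unadjusted p = 0.0319, adjusted p = 0.486). Htr4 in the CEA was at 4.84, 3.37 and 3.87 CPM in NC and at 3.37, 1.23 and 2.46 CPM in HT, lower in HT in each same-numbered pair, and the replicate block gave -0.84 (unadjusted p = 0.0328, adjusted p = 0.749). Htr6 in the CEA was at 21.6, 8.56 and 12.2 CPM in HT, at 10.8, 4.80 and 10.5 CPM in EA and at 13.2, 21.3 and 7.68 CPM in SEA. The libraries of all 3 operated groups overlapped. Htr1d in the CEA was at 13.0, 5.19 and 5.73 CPM in HT and at 7.95, 3.51 and 7.90 CPM in EA. Over the receptors tested, the median log2 fold change for HT against NC was 0.27 in the PVN and -0.17 in the CEA, beside -0.01 and 0.02 over all genes. For EA against HT it was 0.01 in the PVN and 0.08 in the CEA, beside 0.00 and -0.02 over all genes.

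Whether the difference between regions depended on the treatment was tested in a single fit of all 24 libraries. By edgeR 0 of the 9 receptors were called, and 0% of all genes, and DESeq2 also called 0 receptors. At an unadjusted p under 0.05 there was 1 of 9, Htr1b (unadjusted p = 0.00870, adjusted p = 0.642), beside 7.63% of all genes. With PVN NC replicate 2 left out, 1 receptor was called, Htr4, and with PVN NC replicates 1 and 3 left out, 0 were called. The unadjusted p of Htr1b was 0.276 without those 2 libraries and 0.0570 with the replicate block, so neither fit kept its pass.

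Other genes of the serotonin system, taken from 3 lists, were called between regions and not between treatments. The counts between regions stand beside the 56.6% of all genes called, and nothing particular to the lists is read from them. Of 5 further serotonin receptor genes, 3 were tested over all 24 libraries, and Htr1f (1.35, adjusted p = 2.03e-05) and Htr5b (1.33, adjusted p = 0.0129) were higher in the CEA on the log2 scale. Of 11 genes of synthesis, transport and breakdown, 9 were tested, 2 were higher in the CEA and 6 in the PVN. Slc18a2, which loads monoamines into vesicles, was lower in the CEA by a log2 fold change of -2.13, at 7.16 to 9.17 CPM against 28.6 to 42.7 CPM in the PVN. Ddc, the decarboxylase of monoamine synthesis (-1.29), Maob, a monoamine oxidase (-0.86), and Slc29a4, a low-affinity monoamine transporter (-0.70), were also lower in the CEA. Tph2, the neuronal enzyme that begins serotonin synthesis, was higher in the CEA by 2.05 (SE 0.26, adjusted p = 1.22e-06), from 0.473 to 3.97 CPM there and 0.262 to 1.06 CPM in the PVN. Slc6a4, the serotonin transporter of raphe neurons, had 0 to 6 counts per CEA library and 0 to 10 per PVN library and was not tested. Fev, listed with Tph2 and Slc6a4 as a marker of serotonin neurons, had 0 to 3 and 0 to 7 counts. Median levels in the CEA and PVN were 0.156 and 0.278 CPM for Slc6a4, and 0 and 0.147 CPM for Fev. For Tph1 they were 0.138 and 0.401 CPM. These low values lay lower in the CEA, opposite to Tph2.

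Of 26 genes of the G proteins, channels and enzymes through which these receptors signal, all were tested, 6 were higher in the CEA and 9 in the PVN. Adcy5, an adenylyl cyclase of the striatum (2.38, adjusted p = 2.54e-11), and Gnal, the G protein that stimulates it there (1.79, adjusted p = 1.60e-10), were higher in the CEA, as were the Gs-coupled receptor Htr6 and the Gi/o-coupled receptor Htr1d. Gnaz, an inhibitory G protein (-0.88, adjusted p = 9.77e-12), and Gnas, the widespread stimulatory G protein (-1.01, adjusted p = 5.64e-09), were higher in the PVN. In the 8 treatment comparisons 0 genes of these 3 lists were called by edgeR. At an unadjusted p under 0.05, 9 of the 26 signalling genes passed in PVN HT against NC, 8 of them higher in HT, where 11.0% of all genes passed. Among them, named after their values were seen, Arrb1, a beta-arrestin, was at 27.1, 74.4 and 30.5 CPM in NC and at 75.0, 80.0 and 86.7 CPM in HT, and Adcy9, an adenylyl cyclase, was at 10.2, 24.2 and 12.6 CPM in NC and at 27.0, 24.3 and 29.0 CPM in HT. For both genes PVN NC replicates 1 and 3 lay well below replicate 2, and the part of these 2 libraries in the count was not tested.

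Genes whose library-to-library pattern was most like that of each receptor were found over the 24 libraries after the mean of each region was removed. These values of r are descriptions, and the libraries share depth, dissection and base composition. The closest gene was Gpr101 for Htr1a (r = 0.76), Prkce for Htr1b (r = 0.91), Kcnq5 for Htr1d (r = 0.92), Galnt16 for Htr2a (r = 0.86), Pnma8b for Htr2c (r = 0.86), Zfp462 for Htr4 (r = 0.93), Armc8 for Htr5a (r = 0.77) and LOC100911769 for Htr6 (r = 0.85). Next came Syt10 and Grin3a for Htr1a, Aff3 and Tnik for Htr1b, Cacnb1 and Klhl2 for Htr1d, Rundc3b and Fam117b for Htr2a, Usp11 and Gad2 for Htr2c, Spred1 for Htr4, Pja2 and Sugp2 for Htr5a, and Kcnq5 and Rxrg for Htr6. Kcnq5, a potassium channel gene, was thus in the lists of both Htr1d and Htr6, the 2 receptors highest in the CEA relative to the PVN. Htr7, with a mean level under 1 CPM, was left out.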

How the data were processed

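The deposited values are counts of reads over each gene, as whole numbers, which the authors made from strand-specific libraries by mapping filtered reads with HISAT2 and counting with featureCounts, without normalization. Tool versions and the handling of reads that map to several places are not given in the sources used here. The methods name mRatBN7.2 and the processing notes name a human build. The table itself gives no assembly. The farthest gene end it lists for chromosome 1, 282724300, lies outside mRatBN7.2, so coordinates are printed as in the table. Promoter windows come from another build, GRCr8, and were joined by symbol alone. A second header among the rows, 1 line in all, was dropped. It exchanges the names of CEA EA replicates 2 and 3, and the sample titles were followed.

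Titles of the samples gave the groups and numbers, and 0 count columns were left without a sample. Each comparison was fitted in R 4.3.3 with edgeR 4.0.16 on the libraries of its own groups, after filterByExpr and TMM, with the quasi-likelihood test (two-sided), Benjamini-Hochberg adjustment over all genes tested and a threshold of 0.05. Differences over all treatments, and the test of region by treatment, used the 8 group means of 24 libraries. The test was tried on simulated counts first. DESeq2 1.42.0, median-ratio scaling, no filter on low counts, a replicate block, all libraries of a region and each library left out in turn were the alternatives. Likeness used log2 CPM with a prior count of 2 and genes with a mean of at least 1 CPM. A single count was worth 0.0537 to 0.0760 CPM, and a count of 0 allows 3 counts. These limits cover counting error only.

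The 9 receptors, the gene lists and the rule for named genes were chosen with earlier results of these data known. The rule names the group levels and region differences of all 9 receptors, treatment fold changes of those with an unadjusted p under 0.05 and of Htr1a, at most 4 called genes per list by smallest p, Tph2 and Slc6a4, and the 3 most like genes per receptor, of which 1 is not reported here. Further treatment fold changes of Htr1b, Htr2c, Htr4, Htr6 and Htr7, and values of Arrb1, Adcy9, Fev, Tph1 and single marker genes, were added after they were seen. Deviations of same-numbered libraries from their group means correlated by more than 0.1 in all 3 pairs of NC with HT in the CEA (0.19 to 0.35) and of PVN NC with CEA NC (0.13 to 0.32). A block by number was fitted beside the main unpaired fits, but these correlations do not establish pairs. NC and HT rats are different animals, the labels do not tie numbers to animals, and the study's methods give no pairs.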

Additional observations from a re-analysis of the deposited data

Results flagged for a closer look

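For 3 receptors a closer look is warranted, because every library of one region moved one way relative to the control mean and every library of the other region moved the opposite way. The differences themselves were not tested in these pairs of comparisons, and no change passed the adjusted threshold on its own. Ratios are log2 ratios of mean CPM with 0.1 CPM added to each mean. For Htr1b in HT against NC, the ratio was 0.54 in the PVN and -0.67 in the CEA, a difference of 1.21, and both kept their sign with any 1 of the libraries left out (PVN ratios of 0.38 to 0.78, CEA ratios of -0.93 to -0.47). The rule of choice fixed part of this. With every HT library on 1 side of the NC mean, leaving out an HT library could not turn a sign. In the PVN all HT libraries also lay above all NC libraries, so no single library could turn it. The F test of region by treatment over all groups gave Htr1b an adjusted p of 0.642. For Htr1d in EA against HT, the ratios were 0.20 in the PVN and -0.30 in the CEA, a difference of 0.50. Without CEA HT replicate 1 the CEA ratio of Htr1d turned to 0.24, the same sign as in the PVN, and without CEA EA replicate 2 it was -0.0063. For Htr7 in EA against HT, the ratios were -0.77 and 1.16, a difference of -1.92, and both regions held low counts. Without PVN HT replicate 2 the PVN ratio of Htr7 turned to 0.37, the same sign as in the CEA, and without CEA EA replicate 2 the CEA ratio was 0.43.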

How the results depend on the processing

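Leaving out each library in turn gave 0 to 1 receptors called in PVN HT against NC and 0 to 1 in region by treatment. The single calls, Htr1b and Htr4, both came without PVN NC replicate 2, when genes called among all genes rose from 2 to 3418 and from 0 to 816. The cause was not tested. DESeq2 called 28, 91, 21 and 24 of all genes in PVN HT against NC, EA against HT, SEA against HT and EA against SEA, where edgeR called 2, 16, 0 and 0. It called 24, 5, 3 and 5 in the same CEA comparisons and 16 in region by treatment, where edgeR called 0. Without a filter on low counts edgeR called 4 genes in PVN HT against NC and 69 in PVN EA against HT, and with all 12 libraries of the region 0 in each. The replicate block gave 5 in PVN EA against HT. The direction of Htr1a turned with single libraries. Its log2 fold change in PVN EA against HT ran from -0.0215 to 0.173, and in CEA HT against NC from -0.416 to 0.0434. Htr4 over all treatments turned to -0.0912 without PVN NC replicates 1 and 3. In all, 62 of 66 treatment values of single receptors and 349 of 358 region values kept their direction and their side of the threshold, and 156 of 158 counts of receptors called stayed within 1.5 times the reported count. The 66 cover only Htr1a in HT against NC in both regions and EA against HT in both regions, Htr1b in PVN HT against NC and Htr2c in CEA EA against HT. Receptors outside them turned too. In CEA HT against NC, Htr6 went from 0.21 to -0.25 without CEA HT replicate 1, and Htr2c from -0.05 to 0.16 without CEA NC replicate 1. Within that margin, with single libraries left out, the count in CEA against PVN ran from 4 to 6 in NC and from 7 to 8 over all treatments, where Htr7 was lost.

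With the replicate block, 5 receptors were called in CEA against PVN in NC, 8 over all treatments and 0 in each of the 8 treatment comparisons and in region by treatment. The blocked fits changed no call of a receptor at the adjusted threshold. The number of receptors with an unadjusted p under 0.05 ran, over all alternatives, from 0 to 5 in PVN HT against NC, 0 to 3 in CEA EA against HT, 0 to 2 in CEA HT against NC and in region by treatment, 0 to 1 in PVN EA against SEA, CEA SEA against HT and CEA EA against SEA, and was 0 throughout in PVN EA against HT and PVN SEA against HT. Outside CEA HT against NC and the NC regions, same-numbered libraries did not all correlate by more than 0.1. No label shows that any of them share more than a number.

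Depth limits Htr7, with a median of 9.5 counts in the PVN and 3.5 in the CEA, and with it every statement on its treatment values. Groups of 3 leave standard errors of 0.38 to 0.46 for Htr1a in the CEA comparisons named. The smallest detectable change is larger than that and was not worked out. The log2 fold change of 0.63 in CEA EA against HT had an unadjusted p of 0.205 by edgeR.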
